A study of Homo sapiens with 12 samples.

Results

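The genes described here are 49 genes of intestinal digestion, absorption and transport, taken by symbol from a list of members and found in a table of read counts for 28395 genes. The table comes from RNA-seq of HCT116, an established line of human colorectal carcinoma cells, and the experiment asked which genes 2 transcription factors of the gut epithelium, EHF and CDX1, change alone and together. All 49 members had a row in the table, and 29 reached 0.5 CPM (read counts scaled to a common library size) in at least 3 libraries, the filter for the tests below. The other 20 members were too low for that filter and are described by their read counts.

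There were 4 stable lines with 3 libraries each. EV cells carried the empty pcDNA vector and were selected with geneticin (G418). EHF cells carried an EHF expression plasmid (pcDNA3.1-EHF) and were geneticin-resistant clones. CDX1 cells were transduced with a CDX1 retrovirus (MSCV-IRES-GFP-CDX1) and sorted for GFP. EHF+CDX1 cells were CDX1 cells that then received the EHF plasmid and geneticin selection. All lines shared the HCT116 background and the same medium. EV cells had neither the retrovirus nor the sort, and each condition was 1 line, so the factor, the vector and the line cannot be told apart. The labels do not say whether the 3 libraries of a line were separate cultures, so p-values measure only the spread between these libraries.

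Absorptive cells of the gut, the enterocytes and colonocytes, carry out the last steps of digestion with peptidases, disaccharidases and a phosphatase anchored in their brush border. Apical carriers of the solute carrier (SLC) families then take up sugars, peptides, nucleosides, vitamins and metals, and a basolateral set of exporters passes them to the blood, while lipids are bound, re-esterified and packed into lipoproteins. Ion exchangers and carbonic anhydrases drive salt and water uptake, which is the main task of the colon. Many of these genes are known for being highest in mature cells of the small intestine, and CDX factors are known to bind AT-rich sites in some of their promoters.

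The promoters shown are those of the members that were higher in EHF+CDX1 than in EV cells and hold a match to either of 2 short motifs, largest fold first, followed by FABP1, a fatty acid binding protein gene whose sequence was added after its values were seen. The window runs from 250 bases before to 50 bases after a RefSeq start site, and the motifs, in capitals, are TTTAT (a CDX core) and GGAAGT (an ETS core) on either strand, so that ATAAA and ACTTCC are the same motifs read on the other strand. ATAAA also shares its letters with TATA boxes. The intervals on GRCh38.p14 are chrX:66162421-66162720 and chrX:66167500-66167799 on the plus strand for HEPH, and, on the minus strand, chr15:89814803-89815102 for ANPEP, chr15:63381797-63382096 for CA12, chr14:22815822-22816121 for SLC7A7 and chr2:88128013-88128312 for FABP1.
HEPH promoter A: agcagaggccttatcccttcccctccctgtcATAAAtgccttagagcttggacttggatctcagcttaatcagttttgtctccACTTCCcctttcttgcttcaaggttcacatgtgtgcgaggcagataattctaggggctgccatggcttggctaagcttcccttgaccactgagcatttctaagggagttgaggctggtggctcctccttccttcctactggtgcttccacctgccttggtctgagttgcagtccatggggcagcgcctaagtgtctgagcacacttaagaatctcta
HEPH promoter B: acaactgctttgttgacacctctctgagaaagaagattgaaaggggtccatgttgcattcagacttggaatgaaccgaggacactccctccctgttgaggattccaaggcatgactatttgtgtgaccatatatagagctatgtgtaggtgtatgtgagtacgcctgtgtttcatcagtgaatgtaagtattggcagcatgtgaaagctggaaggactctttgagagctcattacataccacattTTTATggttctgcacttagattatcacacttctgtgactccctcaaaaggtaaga
ANPEP promoter: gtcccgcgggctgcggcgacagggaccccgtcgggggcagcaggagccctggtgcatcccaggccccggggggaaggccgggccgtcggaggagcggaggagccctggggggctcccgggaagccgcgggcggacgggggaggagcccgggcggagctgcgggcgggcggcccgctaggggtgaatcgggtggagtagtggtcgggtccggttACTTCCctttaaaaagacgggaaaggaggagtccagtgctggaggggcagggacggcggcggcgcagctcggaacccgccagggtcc
CA12 promoter: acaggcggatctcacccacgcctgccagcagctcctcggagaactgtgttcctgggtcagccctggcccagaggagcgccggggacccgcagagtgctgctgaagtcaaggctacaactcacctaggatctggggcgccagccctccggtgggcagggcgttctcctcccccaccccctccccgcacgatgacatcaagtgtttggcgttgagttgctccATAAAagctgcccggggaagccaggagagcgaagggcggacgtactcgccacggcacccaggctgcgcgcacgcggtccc
SLC7A7 promoter: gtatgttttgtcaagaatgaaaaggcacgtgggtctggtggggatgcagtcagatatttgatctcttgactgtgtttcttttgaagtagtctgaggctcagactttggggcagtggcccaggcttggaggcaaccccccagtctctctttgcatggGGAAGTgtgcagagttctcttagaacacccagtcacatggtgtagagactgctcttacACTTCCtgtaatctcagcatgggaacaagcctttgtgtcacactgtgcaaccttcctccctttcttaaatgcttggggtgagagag
FABP1 promoter: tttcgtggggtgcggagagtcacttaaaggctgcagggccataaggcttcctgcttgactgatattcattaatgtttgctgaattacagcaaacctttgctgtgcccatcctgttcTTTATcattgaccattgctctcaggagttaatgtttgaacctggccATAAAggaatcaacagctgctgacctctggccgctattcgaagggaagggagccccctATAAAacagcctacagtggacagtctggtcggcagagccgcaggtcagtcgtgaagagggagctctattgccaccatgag

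In HEPH promoter A the CDX core began at -219 and the ETS core at -167, counted from the start site, and in HEPH promoter B a CDX core began at -5. ANPEP held an ETS core at -37, and SLC7A7 held ETS cores at -94 and -36. CA12 held 1 CDX core, at -30, and FABP1 held 3, at -134, -88 and -30. The starts of HEPH, ANPEP and SLC7A7 that are not shown held neither motif. Neither did the promoters of SLC5A1, SLC9A2 and SLC51A, and SLC28A3 had no promoter entry. Of all 35116 promoters in the RefSeq table, 34.9% held TTTAT and 22.8% held GGAAGT. Of the 55 promoters of the 36 members with an entry, 40.0% held TTTAT and 12.7% held GGAAGT, and of the 12 promoters of members higher in EHF+CDX1 than in EV cells, 25% held each motif. A match is a run of letters, not evidence of binding.

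The libraries held between 13523007 and 74186741 counts each, and a limit of 3 counts lay between 0.0375 and 0.207 CPM. Intervals and limits here cover counting error only. CDX1 was at 525 ± 35.8 CPM in CDX1 cells and 5419 ± 277 CPM in EHF+CDX1 cells (SD, n = 3), so the comparison of these lines differs in both factors, and it had at most 4 counts in any EV or EHF library. EHF was at 19312 ± 305 CPM in EHF cells and 18708 ± 1433 CPM in EHF+CDX1 cells, against 299 ± 54.4 CPM in EV and 12.3 ± 0.603 CPM in CDX1 cells. The epithelial markers EPCAM, KRT8, KRT18 and CDH1 were present in every library, with summed levels of 3177 to 3991 CPM in EV, 3126 to 3222 in EHF, 1982 to 2361 in CDX1 and 3536 to 3728 in EHF+CDX1 cells. Most of the sum was KRT8 and KRT18, which had their lowest means in CDX1 cells. EPCAM had its highest mean there, at 491 CPM against 265 CPM in EV cells. CDH1 had means of 213 CPM in EV and 117 CPM in CDX1 cells. EV replicate 3 stood apart from the other EV libraries, with a chi-square of 297 and 270 for each degree of freedom against them, where those gave 4.11 against each other. Markers of other cells also moved with the lines. The summed CPM of 4 leukocyte markers was 2.37 to 10.7 in EV, 12.9 to 14.0 in EHF, 76.9 to 88.3 in CDX1 and 40.4 to 44.4 in EHF+CDX1 cells, nearly all of it CD68 and, in EHF+CDX1 cells, LYZ, with PTPRC at 0 to 6 reads in every library. That of 5 fibroblast markers was 33.5 to 75.3 in EV, 38.9 to 43.7 in EHF, 167 to 219 in CDX1 and 36.4 to 37.9 CPM in EHF+CDX1 cells, nearly all of it COL1A1, with COL1A2 and DCN at 0 to 7 reads. That of 5 goblet cell markers was 8.23 to 31.8 in EV, 6.74 to 7.90 in EHF, 17.0 to 23.3 in CDX1 and 8.5 to 10.5 CPM in EHF+CDX1 cells, most of it FCGBP, while TFF3 had 42, 34 and 8 reads in EHF+CDX1 cells and 0 in EV and CDX1 cells, and MUC2 had means of 1.19 CPM in EV and 2.77 CPM in EHF+CDX1 cells. The part of these markers in the results was not tested. Several members were far higher in EV replicate 3 than in the other EV libraries, and values without it are given where it moves a result.

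Of the 29 tested members, 8 rose and 2 fell in EHF+CDX1 against EV cells, read at a 1.5-fold threshold with edgeR's quasi-likelihood test and a Benjamini-Hochberg adjusted p of 0.05. Of all 15853 tested genes, 7.3% were higher and 3.13% lower in that comparison. The genes that rose were HEPH (iron), SLC28A3 (nucleosides), SLC5A1 (glucose), ANPEP (peptides), CA12 and SLC9A2 (ions), SLC7A7 (amino acids) and SLC51A (bile acids). SLC16A5, of the monocarboxylate transporter family, and SLC26A2, a sulfate transporter, fell. HEPH and SLC28A3 passed the filter only through the EHF+CDX1 libraries, the line where they were high, and of the other 27 tested members 6 rose and 2 fell. The median log2 fold change was 0.13 over the tested members and -0.03 over all tested genes. In bulk libraries, fewer cells expressing a gene and less RNA per cell cannot be told apart. Without EV replicate 3 the counts were 9 and 2, with 11.2% and 4.28% of all genes. Without EHF+CDX1 replicate 1 they were 5 and 1, with 5.04% and 2.16% of all genes. In that fit HEPH and SLC28A3 no longer passed the filter.

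The single lines moved some of the same members and some others. EHF cells had 5 members higher and 2 lower than EV cells (5.68% and 2.65% of all genes), and CDX1 cells had 6 higher and 8 lower (21.3% and 23.3%). The share of members called in CDX1 cells was therefore near the background in both directions, at 20.7% and 27.6%. HEPH is among those 6. Of the 27 tested members other than HEPH and SLC28A3, 5 were higher and 8 lower in CDX1 than in EV cells. Against EHF cells, EHF+CDX1 cells had 4 members higher (2.49% of all genes), namely HEPH, SLC28A3, SLC40A1 and SLC5A1, of which the first 2 entered as described above. No member was lower there (0.189% of all genes), with 0 members lower at an unadjusted p of 0.05 and 0 by DESeq2 or limma. Against CDX1 cells, 10 members were higher and 3 lower, beside 22.3% and 18.7% of all genes. HEPH and SLC28A3 are among these 10, and of the other 27 tested members 8 were higher and 3 lower. Without EV replicate 3, EHF cells had 8 members higher and 3 lower than EV cells, beside 9.51% and 3.46% of all genes, and CDX1 cells had 9 higher and 7 lower, beside 26.3% and 24.8%. The comparisons with EV cells share the same 3 control libraries.

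Among the brush border peptidases, ANPEP (aminopeptidase N, chr15:89784895-89814852) was the only member that passed the 1.5-fold test, and it was highest with CDX1 alone. It had 0, 0 and 0.129 CPM in EV, 0.426, 0.399 and 0.475 CPM in EHF, 3.55, 3.54 and 2.52 CPM in CDX1 and 0.454, 0.74 and 0.622 CPM in EHF+CDX1 cells. The CDX1 libraries stood above all others, and the EHF and EHF+CDX1 libraries overlapped each other but not those of EV cells. The log2 fold change was 5.53 ± 0.55 (SE) in CDX1 against EV cells (edgeR adjusted p = 5.518e-06), 3.12 ± 0.60 in EHF+CDX1 against EV cells (adjusted p = 0.006087) and -2.41 ± 0.40 in EHF+CDX1 against CDX1 cells (adjusted p = 0.0007995). The EV level rests on 7 reads in replicate 3, and without it the first 2 values were 10.0 and 7.59, which depend on the prior count. In EHF cells the call (log2 2.67, edgeR adjusted p = 0.0255) was kept without EV replicate 3, at 7.14, and was lost without EV replicate 1 or 2 or any EHF library, with adjusted p-values up to 0.0875.

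DPP4 (dipeptidyl peptidase 4) and ENPEP (glutamyl aminopeptidase) were expressed in all lines with no call. DPP4 had means of 40.7 CPM in EV and 56.5 CPM in EHF+CDX1 cells. That log2 fold change of 0.47 passed only edgeR's test against no change (adjusted p = 0.02369). ENPEP had line means between 3.17 and 3.83 CPM. MME (neprilysin) had at most 4 reads in any library. Of the sugar-splitting enzymes, only MGAM (maltase-glucoamylase) passed the filter, at 0.172, 0.237 and 1.51 CPM in EV and 0.454, 0.588 and 0.345 CPM in EHF+CDX1 cells. Its log2 fold change of -0.58 in EHF+CDX1 against EV cells missed the test and was 1.25 without EV replicate 3. LCT (lactase) had 3 to 39 reads in a library and TREH (trehalase) 0 to 20.

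ALPI, the intestinal alkaline phosphatase, had 9, 6 and 8 reads in the EHF+CDX1 libraries and at most 2 reads in any other library. The pooled ratio of these reads, scaled for depth, was 6.09 against EV cells (95% interval 1.84 to 31.7) and 22.9 against CDX1 cells (3.73 to 945). The wide intervals reflect the 3 and 1 reads of the lines compared. In an edgeR fit without the filter on low counts, the adjusted p was 0.2607 against EV cells, which missed the test, and 0.02161 against CDX1 cells.

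SLC5A1, the sodium-coupled glucose and galactose carrier of the brush border (chr22:32043261-32113029, overlapping LOC105373000), was higher in EHF+CDX1 cells than in each other line. It had 0.0431, 0 and 0.441 CPM in EV, 0.745, 0.525 and 0.762 CPM in EHF, 0.548, 0.632 and 0.669 CPM in CDX1 and 3.88, 3.42 and 3.32 CPM in EHF+CDX1 cells. All EHF+CDX1 libraries lay above all 9 others, and the EHF and CDX1 libraries lay above those of EV cells. The edgeR log2 fold change of EHF+CDX1 cells was 4.0 ± 0.58 against EV (adjusted p = 0.000645), 2.39 ± 0.50 against EHF (adjusted p = 0.0371) and 2.52 ± 0.50 against CDX1 cells (adjusted p = 0.00231). The interaction, the change from CDX1 to EHF+CDX1 cells minus that from EV to EHF cells, was 0.91 ± 0.80 and missed the test (adjusted p = 0.5085). Without EV replicate 3, the value against EV cells was 7.12, and the call against EHF cells was lost without any 1 EHF or EHF+CDX1 library, with log2 values of 2.23 to 2.52 and adjusted p-values between 0.1264 and 0.2676.

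SLC2A5, the fructose carrier, had 8, 17 and 21 reads in EHF and 9, 16 and 4 reads in EHF+CDX1 cells. It had 2, 0 and 0 reads in both the EV and the CDX1 cells, so the reads were found almost entirely in the lines that carried the EHF plasmid. The pooled ratio was 15.5 for EHF against EV cells (95% interval 4.06 to 132) and 14.5 for EHF+CDX1 against CDX1 cells (3.66 to 125). In the edgeR fit without the filter the adjusted p-values were 0.06151, which missed the test, and 0.01741. SLC2A2, the basolateral glucose carrier, had at most 7 reads in any library.

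SLC15A1, which takes up di- and tripeptides with protons (chr13:98683801-98752672), fell with CDX1 alone and missed the test with both factors. It had 3.92, 3.79 and 12.2 CPM in EV, 5.43, 4.77 and 4.59 CPM in EHF, 0.219, 0.328 and 0.206 CPM in CDX1 and 3.58, 3.06 and 3.25 CPM in EHF+CDX1 cells. The CDX1 libraries lay below all others, with 8 to 13 reads each. The edgeR log2 fold change was -4.74 ± 0.48 in CDX1 against EV cells (adjusted p = 7.45e-06), or -3.93 without EV replicate 3. EHF+CDX1 cells were 13.0-fold above CDX1 cells (log2 3.70 ± 0.49, adjusted p = 8.586e-05), and against EV cells the value of -1.03 missed the test (adjusted p = 0.3047) and was -0.22 without EV replicate 3.

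SLC7A7, a light chain that exports basic amino acids across the basolateral membrane (chr14:22773222-22819791), was low and rose in both lines with CDX1. It had 0.388, 0.237 and 0.239 CPM in EV, 0.319, 0.651 and 0.462 CPM in EHF, 0.723, 0.884 and 0.823 CPM in CDX1 and 1.33, 0.949 and 1.45 CPM in EHF+CDX1 cells. The EHF libraries overlapped those of EV cells, and the CDX1 and EHF+CDX1 libraries lay above them. The edgeR log2 fold change was 2.11 ± 0.35 in EHF+CDX1 (adjusted p = 0.00335) and 1.52 ± 0.35 in CDX1 against EV cells (adjusted p = 0.01022), and both calls were lost with quantile normalization in limma voom (1.49, adjusted p = 0.1517, and 1.32, adjusted p = 0.09879). SLC3A1, the heavy chain of the cystine and dibasic amino acid carrier, had 0 to 20 reads in a library and overlaps PREPL.

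The concentrative nucleoside transporters SLC28A2 and SLC28A3 moved in different ways. SLC28A3, which takes up purine and pyrimidine nucleosides (chr9:84275457-84368727), overlaps SLC28A3-AS1, and SLC28A2 overlaps SLC28A2-AS1. Without the strand setting of the counting, reads of such pairs cannot be told apart. LCT, TREH, SLC2A5, SLC46A1, SLC11A2, SLC39A4, SLC51B, APOA1 and MOGAT2 also overlap other genes. SLC28A3 had 77, 48 and 18 reads in EHF+CDX1 cells. It had 0, 0 and 3 reads in EV, 0, 2 and 4 in EHF and 6, 2 and 0 in CDX1 cells, so it was all but undetected in the other lines. EHF+CDX1 cells reached 1.17 ± 0.227 CPM, with a pooled ratio of 37.8 against EV cells (95% interval 12.7 to 186), 28.0 against EHF cells (12.6 to 77.7) and 17.8 against CDX1 cells (8.81 to 42.1). SLC28A3 also reached 0.5 CPM in the EHF+CDX1 libraries alone, and in the edgeR fit without a filter the adjusted p-values were 0.0007719, 0.001981 and 0.0003931. Without EV replicate 3 the log2 fold change against EV cells went from 5.17 to 8.53, and without CDX1 replicate 1 that against CDX1 cells went from 4.12 to 5.34. SLC28A2, which favours purine nucleosides, had means of 0.864 ± 0.636 CPM in EV, 0.267 ± 0.0464 in EHF, 0.277 ± 0.0502 in CDX1 and 0.58 ± 0.118 CPM in EHF+CDX1 cells. It was lower in CDX1 than in EV cells (log2 -1.73, edgeR adjusted p = 0.0182), but this was -0.85 without EV replicate 3 (adjusted p = 0.2446) and -1.57 without CDX1 replicate 1 (adjusted p = 0.06858), both short of the threshold.

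**Figure D1:**
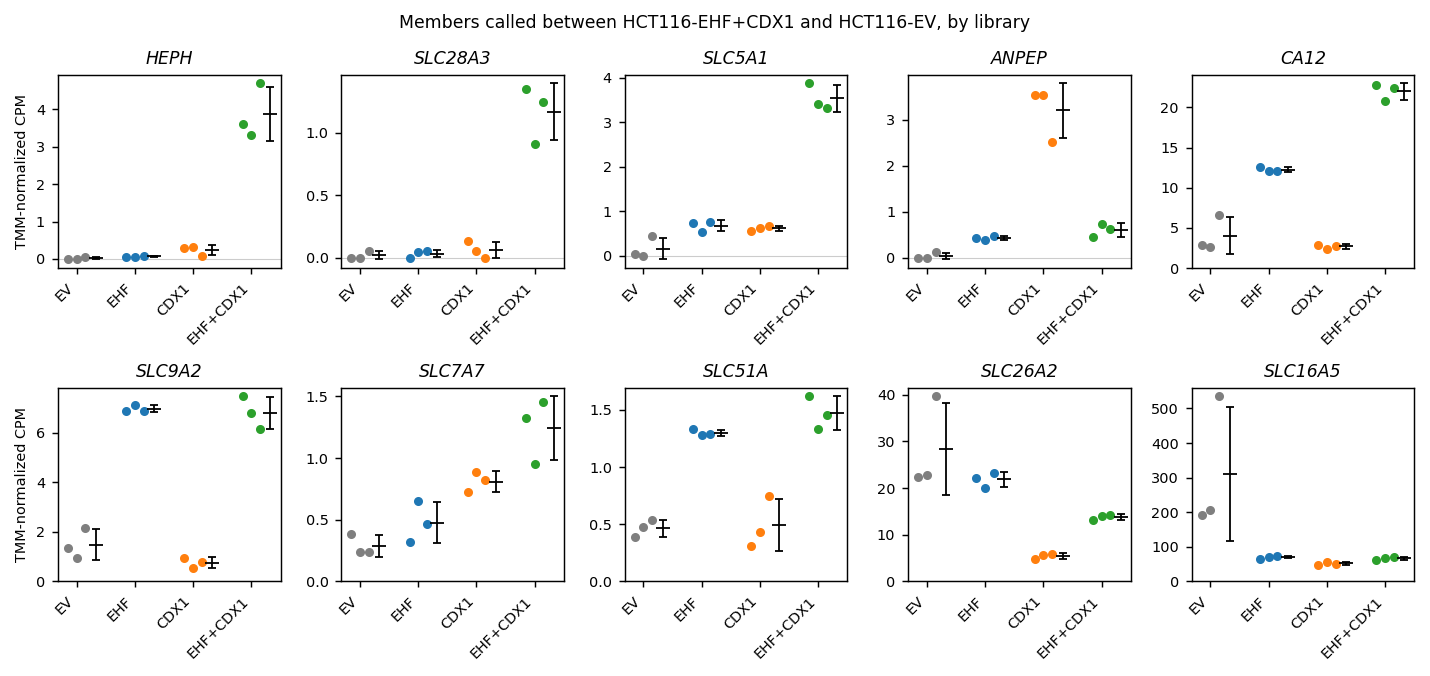
TMM-normalized CPM (y axis, a scale for each gene) of the 10 members called between EHF+CDX1 and EV cells, by line (x axis), with a point per library and bars for mean ± SD (n = 3). HEPH, SLC28A3, SLC5A1 and CA12 were highest in EHF+CDX1 cells, ANPEP in CDX1 cells, while SLC9A2 and SLC51A were at like levels in EHF and EHF+CDX1 cells. The EV points of SLC26A2 and SLC16A5 include replicate 3, at 39.7 and 535 CPM.

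Of the vitamin transporters, SLC5A6 and SLC23A1 moved in opposite directions with CDX1. SLC5A6, the sodium-coupled carrier of biotin and pantothenate (chr2:27199587-27212787, overlapping ATRAID), had 86.3, 89.7 and 116 CPM in EV, 68.7, 67.7 and 67.1 CPM in EHF, 27.9, 32.9 and 34.7 CPM in CDX1 and 77.1, 79.9 and 81.8 CPM in EHF+CDX1 cells. The CDX1 libraries were the lowest, at 3.06-fold below EV cells (log2 -1.61 ± 0.12, edgeR adjusted p = 3.563e-06), and EHF+CDX1 cells were 2.5-fold above them (adjusted p = 4.124e-05). SLC23A1, a carrier of ascorbate (chr5:139367196-139385676, overlapping PAIP2), had 0.301, 0.284 and 0.643 CPM in EV, 0.319, 0.294 and 0.387 CPM in EHF, 1.64, 1.21 and 1.59 CPM in CDX1 and 0.419, 0.588 and 0.415 CPM in EHF+CDX1 cells. The CDX1 libraries lay above all others, and the EV libraries overlapped those of EHF and of EHF+CDX1 cells. SLC23A1 was 3.35-fold higher in CDX1 than in EV cells (log2 1.74 ± 0.34, edgeR adjusted p = 0.00329) and 3.06-fold lower in EHF+CDX1 than in CDX1 cells (adjusted p = 0.00575).

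SLC23A2 and SLC46A1 were not called. SLC23A2, the second ascorbate carrier, had means of 39.1 to 40.1 CPM in the 3 lines other than EV, where replicate 3 was at 84.5 CPM and the others at 42.0 and 40.5 CPM. SLC46A1, the proton-coupled folate carrier, had means of 9.39 to 15.01 CPM. SLC19A3, a thiamine carrier, had 16, 3 and 1 reads in EHF+CDX1 cells and a single read in the other 9 libraries, below the filter.

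The genes of iron export held the largest rise of EHF+CDX1 cells and the largest fall of EHF cells against EV cells among the tested members. HEPH, hephaestin, the ferroxidase that works with ferroportin at the basolateral membrane (chrX:66162671-66268863), had 206, 175 and 68 reads in EHF+CDX1 cells, at 3.60, 3.32 and 4.70 CPM. It had 0, 0 and 3 reads in EV, 1, 3 and 7 in EHF and 13, 13 and 3 in CDX1 cells. The EHF+CDX1 libraries lay far above all others, and the CDX1 libraries lay above those of EV cells by a small margin. The pooled ratio was 119 against EV cells (95% interval 40.4 to 578), 48.0 against EHF cells (26.6 to 96.9) and 15.4 against CDX1 cells (10.6 to 23.3). HEPH reached 0.5 CPM in the EHF+CDX1 libraries alone, so it entered the filtered fit only through the line where it was high. In the edgeR fit without a filter the adjusted p-values were 1.145e-06, 3.978e-06 and 4.522e-06. HEPH also rose in CDX1 against EV cells, with a pooled ratio of 7.69 (2.38 to 39.5, adjusted p = 0.01329 in the edgeR fit without a filter). The EV level of HEPH rests on the 3 reads of replicate 3, without which the log2 fold changes of EHF+CDX1 and CDX1 against EV cells were 10.2 and 6.24 in place of 6.89 and 2.86.

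SLC40A1, ferroportin, the exporter of iron (chr2:189560590-189580786), was nearly lost with EHF alone and present with both factors. It had 0.517, 0.852 and 1.08 CPM in EV, 0.0532, 0.063 and 0.075 CPM in EHF, 0.57, 0.935 and 0.54 CPM in CDX1 and 1.12, 0.759 and 0.898 CPM in EHF+CDX1 cells. The EHF libraries, with 1, 3 and 6 reads, lay below all others, and the libraries of the other 3 lines overlapped. EHF cells were 11.95-fold below EV cells (log2 -3.58 ± 0.45, edgeR adjusted p = 0.0003104) and EHF+CDX1 cells 13.2-fold above EHF cells (adjusted p = 0.0004217). The call held without each single library.

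The genes of metal import moved less. SLC39A4, a zinc importer, fell from 75.6 ± 18.6 CPM in EV to 27.8 ± 2.38 CPM in CDX1 cells (log2 -1.44 ± 0.15, edgeR adjusted p = 7.748e-05) and was at 47.7 ± 0.354 CPM in EHF and 43.7 ± 1.65 CPM in EHF+CDX1 cells. Its log2 fold change of -0.79 in EHF+CDX1 against EV cells missed the test (adjusted p = 0.2097) and passed without EV replicate 3, at -0.98 (adjusted p = 4.318e-05). SLC11A2, an importer of ferrous iron, and CYBRD1, the ferric reductase that supplies it, were not called, with means of 31.0 to 50.9 CPM and 26.4 to 42.7 CPM. SLC39A5, a second zinc importer, had 1 to 37 reads in every library and overlaps ANKRD52.

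Among the ion exchangers and carbonic anhydrases, CA12 and SLC9A2 followed EHF. CA12, a carbonic anhydrase with its active site outside the cell (chr15:63321378-63381846, overlapping LOC124903506 and LOC124903505), had 2.89, 2.65 and 6.65 CPM in EV, 12.6, 12.1 and 12.1 CPM in EHF, 2.94, 2.42 and 2.73 CPM in CDX1 and 22.8, 20.8 and 22.4 CPM in EHF+CDX1 cells. The EHF libraries lay above those of EV and CDX1 cells, and the EHF+CDX1 libraries above those of EHF cells, although that last step (log2 0.84 ± 0.26) missed the 1.5-fold test (edgeR adjusted p = 0.9859). Against EV cells the log2 fold change was 2.38 ± 0.28 in EHF+CDX1 (adjusted p = 0.0002009) and 1.54 ± 0.27 in EHF cells (adjusted p = 0.01072), and 2.98 and 2.14 without EV replicate 3. SLC9A2, a sodium-proton exchanger (chr2:102619553-102711355, overlapping LOC124905954), had 1.33, 0.947 and 2.17 CPM in EV, 6.86, 7.12 and 6.89 CPM in EHF, 0.964, 0.53 and 0.798 CPM in CDX1 and 7.46, 6.78 and 6.15 CPM in EHF+CDX1 cells. It rose 4.49-fold in EHF (edgeR adjusted p = 0.0005541) and 4.41-fold in EHF+CDX1 cells (adjusted p = 0.0004967) against EV cells, and the lines with EHF overlapped, with a log2 difference of -0.03 ± 0.25.

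CA2, a cytosolic carbonic anhydrase abundant in colonocytes (overlapping CA3-AS1), followed CDX1 alone. It had 19.6, 17.0 and 9.45 CPM in EV, 32.7, 33.3 and 35.1 CPM in EHF, 118, 87.9 and 86.7 CPM in CDX1 and 23.6, 23.0 and 22.4 CPM in EHF+CDX1 cells. The CDX1 libraries lay above all others, and those of EHF+CDX1 cells lay between those of EV and EHF cells. It was 6.41-fold higher in CDX1 than in EV cells (log2 2.68 ± 0.22, edgeR adjusted p = 2.338e-06) and 4.23-fold lower in EHF+CDX1 than in CDX1 cells (adjusted p = 2.979e-05). In EHF against EV cells (log2 1.15, adjusted p = 0.0357) the call was lost without any EHF library, with log2 values of 1.17, 1.16 and 1.12 and adjusted p-values of 0.0723 to 0.1013. CA13, another cytosolic carbonic anhydrase, had means of 6.82 CPM in EV and 12.8 CPM in EHF+CDX1 cells and missed the test (log2 0.89, adjusted p = 0.16), although it passed without EV replicate 3, at 1.23 (adjusted p = 9.95e-05).

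SLC26A2, the sulfate transporter of the colonic surface (chr5:149960758-149987400), was lowest in CDX1 cells. It had 22.4, 22.9 and 39.7 CPM in EV, 22.2, 20.1 and 23.3 CPM in EHF, 4.82, 5.63 and 5.89 CPM in CDX1 and 13.1, 14.1 and 14.2 CPM in EHF+CDX1 cells. The CDX1 libraries and then the EHF+CDX1 libraries lay below those of the other lines without overlap. It was 5.23-fold below EV cells with CDX1 (log2 -2.39 ± 0.20, edgeR adjusted p = 3.601e-06) and EHF+CDX1 cells were 2.53-fold above CDX1 cells (adjusted p = 0.0013). The fall in EHF+CDX1 against EV cells (log2 -1.04 ± 0.20, adjusted p = 0.0445) was lost without EV replicate 3 (-0.72, adjusted p = 0.1759) and without EHF+CDX1 replicate 1, 2 or 3 (-1.002, -1.04 and -1.06, with adjusted p-values of 0.1482, 0.1219 and 0.09844).

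SLC9A3, the main apical sodium-proton exchanger, fell from 14.6 ± 3.59 CPM in EV to 6.09 ± 1.12 CPM in CDX1 cells (log2 -1.27 ± 0.19, edgeR adjusted p = 0.00126) and overlaps the antisense gene SLC9A3-AS1. SLC20A1, a phosphate carrier, rose from 109 ± 23.7 to 194 ± 27.7 CPM in the same comparison (log2 0.82, adjusted p = 0.0391). The latter call was lost without EV replicate 1 (0.72), EV replicate 2 (0.74) or CDX1 replicate 1 (0.71), with adjusted p-values of 0.1337, 0.1176 and 0.1506. SLC26A3, the chloride-bicarbonate exchanger that marks mature colonocytes, had 0 to 9 reads in each library except EHF replicate 3, with 21, so that exchanger was all but undetected in every line.

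SLC16A5, of the monocarboxylate transporter family (chr17:75087385-75110149, overlapping ARMC7), had the highest level per length of all tested members in EV cells and fell in the 3 other lines. It had 192, 207 and 535 CPM in EV, 66.3, 71.4 and 72.5 CPM in EHF, 47.6, 57.6 and 51.3 CPM in CDX1 and 62.1, 67.3 and 71.9 CPM in EHF+CDX1 cells. All EV libraries lay above all 9 others, and the EHF and EHF+CDX1 libraries overlapped. Against EV cells the log2 fold change was -2.15 ± 0.32 in EHF, -2.58 ± 0.32 in CDX1 and -2.22 ± 0.32 in EHF+CDX1 cells, with edgeR adjusted p-values of 0.0017, 6.217e-05 and 0.0011, and it was -1.51, -1.94 and -1.58 without EV replicate 3.

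SLC51A, a subunit of the basolateral bile acid exporter (chr3:196216534-196233427, overlapping LOC105374304), followed EHF, while its partner SLC51B had at most 4 reads in any library. SLC51A had 0.388, 0.473 and 0.533 CPM in EV, 1.33, 1.28 and 1.29 CPM in EHF, 0.307, 0.429 and 0.746 CPM in CDX1 and 1.62, 1.33 and 1.45 CPM in EHF+CDX1 cells. The lines with the EHF plasmid lay above the other lines in every library. The log2 fold change was 1.63 ± 0.32 in EHF+CDX1 against EV cells (edgeR adjusted p = 0.0146) and 1.58 ± 0.31 against CDX1 cells (adjusted p = 0.00424). The former was lost without EHF+CDX1 replicate 1 (1.55, adjusted p = 0.0658), and the call in EHF against EV cells (1.45, adjusted p = 0.0388) was lost without EV replicate 1 or 2 or any EHF library, with log2 values of 1.34 to 1.46 and adjusted p-values between 0.08194 and 0.1044.

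Of the water channels, AQP3, which also passes glycerol, had line means of 12.6 to 21.3 CPM with no call. AQP8, a colonocyte water channel below the filter, had 13, 13 and 30 reads in CDX1 cells. It had 0, 0 and 4 reads in EV, 1, 1 and 6 in EHF and 1, 1 and 1 in EHF+CDX1 cells, so the reads were found mainly with CDX1 alone. The pooled ratio was 11.1 for CDX1 against EV cells (95% interval 4.12 to 42.3), and EHF+CDX1 cells were 18.7-fold lower than CDX1 cells (6.08 to 93.5).

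Of the 9 genes of lipid uptake and lipoprotein assembly, only SLC27A4, a fatty acid transport protein (chr9:128340527-128361470, overlapping TMSB4XP4), passed the filter. It had 82.3, 87.5 and 126 CPM in EV, 87.9, 85.7 and 85.9 CPM in EHF, 32.2, 40.2 and 40.8 CPM in CDX1 and 87.9, 88.5 and 89.2 CPM in EHF+CDX1 cells. The CDX1 libraries lay below all others, at 2.62-fold below EV cells (log2 -1.39 ± 0.15, edgeR adjusted p = 9.206e-05), and EHF+CDX1 cells were 2.35-fold above them (adjusted p = 0.0004612).

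FABP1, which binds fatty acids in enterocytes and hepatocytes (chr2:88122982-88128062), had 21, 38 and 16 reads in the EHF+CDX1 libraries and 0 reads in all 9 others. Its promoter is shown above. At 0.731 ± 0.37 CPM, EHF+CDX1 cells were at least 6.72-fold higher than EV cells, at least 8.43-fold higher than EHF cells and at least 10.0-fold higher than CDX1 cells, taking 3 counts per library as the limit of a line with none. In an edgeR fit without the filter on low counts, with 24839 genes, the adjusted p-values were 0.005835, 0.01043 and 0.001025. The summed level of 7 hepatocyte markers was 1.03 to 2.96 CPM in EV, 2.88 to 3.60 in EHF, 1.31 to 1.91 in CDX1 and 4.63 to 7.31 CPM in EHF+CDX1 cells, most of it SERPINA1. From EV to EHF+CDX1 cells SERPINA1 went from 1.51 to 5.83 CPM, CYP3A4 from 0.0245 to 0.147, ALB from 0.0858 to 0.141 and AHSG from 0.124 to 0.217 CPM, while FGA, FGB and TTR had at most 2 reads in any library of these lines. The part of these markers in the FABP1 reads was not tested.

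The other genes of lipid handling were at the limit of detection, and a few had more reads in EHF+CDX1 cells. MOGAT2, which re-esterifies absorbed monoacylglycerol, had 7, 13 and 5 reads there and at most 2 in any other library, with a pooled ratio of 19.8 against EV cells (95% interval 3.25 to 815). That difference missed the test in the edgeR fit without the filter (adjusted p = 0.1188). MTTP, which loads lipid onto apolipoprotein B, had 16, 15 and 4 reads in EHF+CDX1, 4, 11 and 24 in EV and 4, 1 and 2 in CDX1 cells. Scaled for depth, the EHF+CDX1 cells were close to the EV cells (pooled ratio 0.712, interval 0.438 to 1.15) and 4.99-fold above the CDX1 cells (2.18 to 13.3). CD36, a fatty acid receptor, had 0, 2 and 0 reads in EHF+CDX1 and 3, 4 and 17 in EV cells, a 15.1-fold difference (3.75 to 132). EV replicate 3 held 17 of the 24 EV reads, and a ratio without it was not computed. The adjusted p in the edgeR fit without the filter was 0.0492. FABP2, the intestinal fatty acid binding protein, had 7, 3 and 1 reads in EHF+CDX1 cells and at most 2 in any other library. APOA1 had 1 to 22 reads in every library, APOB had reads in 2 libraries (4 and 9) and APOC3 in 1 (3 reads).

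**Figure D2:**
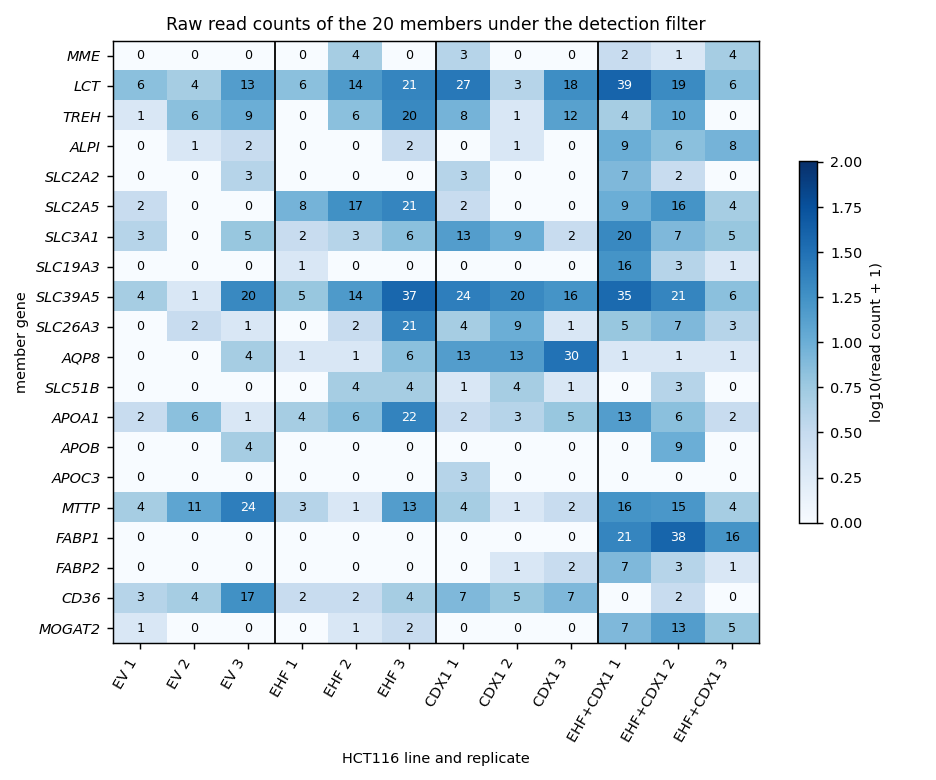
Raw read counts, printed in each cell and coloured as log10(read count + 1), of the 20 members below 0.5 CPM in 3 libraries (rows) in the 12 libraries (columns, by line and replicate). FABP1 had 21, 38 and 16 reads in EHF+CDX1 cells and 0 elsewhere, and AQP8 had 13, 13 and 30 reads in CDX1 cells. Libraries differ in depth, so that counts are compared only after scaling.

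In the fit without the filter, all 20 of these members entered. Against EV cells, 1 was higher and 1 lower in EHF+CDX1 cells (FABP1 and CD36), 1 higher and 1 lower in CDX1 cells (AQP8 and MTTP), and 0 in either direction in EHF cells. FABP1 was also higher than in EHF cells, the only one of these members called there. Against CDX1 cells, EHF+CDX1 cells had 6 of them higher (ALPI, SLC2A5, SLC19A3, MTTP, FABP1 and MOGAT2) and 2 lower (AQP8 and CD36). Of all 24839 genes in this fit, 5.23% were higher and 2.04% lower in EHF+CDX1 than in EV cells, 1.64% and 0.0926% than in EHF cells, and 15.2% and 12.2% than in CDX1 cells. Against EV cells the shares were 3.76% and 1.69% in EHF and 14.4% and 15.3% in CDX1 cells.

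The interaction set the change from CDX1 to EHF+CDX1 cells against that from EV to EHF cells. Of the 27 members with over 3 counts in a library of each line, 10 had a positive and 2 a negative interaction. These were 37% and 7.41% of the members, beside 19.8% and 17.9% of the 15456 genes with such counts. The positive ones were SLC15A1, SLC40A1, SLC28A2, SLC16A5, SLC5A6, SLC26A2, SLC9A3, CA12, SLC27A4 and SLC39A4, and the negative ones ANPEP and CA2. The positive interaction arose in SLC15A1 from a fall with CDX1 alone, and in SLC40A1 from a fall with EHF alone, neither of which passed the test with both factors. For SLC16A5 it arose from falls with each factor that did not add. Without EV replicate 3 there were 10 positive and 5 negative interactions, and the shares over all genes in that fit were 23.3% and 24.4%. The CDX1 level also differed between CDX1 and EHF+CDX1 cells, at 525 and 5419 CPM. The EHF level at the start of each change differed too, at 12.3 CPM in CDX1 and 299 CPM in EV cells. The part of either level in these differences was not tested.

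**Figure D3:**
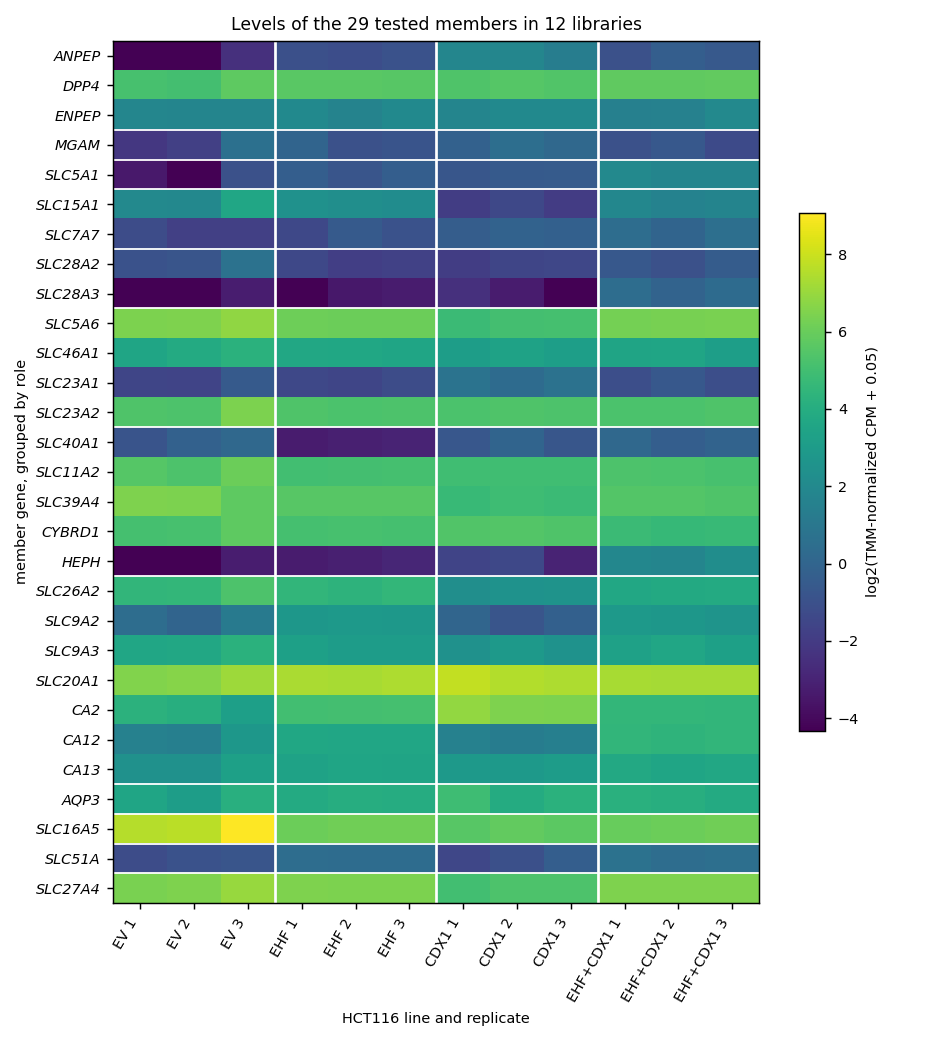
Levels of the 29 tested members (rows, by role) in the 12 libraries (columns, by line and replicate) as log2 of TMM-normalized CPM plus 0.05. SLC16A5 in EV replicate 3, at 535 CPM, is the highest value, and the rows of HEPH, SLC28A3 and SLC5A1 are brightest in the EHF+CDX1 libraries.

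Per length, on the log2 RPKM scale deposited by the authors, the levels of the tested members in EHF+CDX1 cells ran from -4.92 ± 0.45 for MGAM to 5.63 ± 0.01 for SLC20A1 (mean ± SD, n = 3). The other high members on that scale were SLC27A4 at 4.88 ± 0.02, SLC5A6 at 4.38 ± 0.05, SLC16A5 at 4.13 ± 0.11 and DPP4 at 3.91 ± 0.04. The genes that rose most in these cells stayed low, with a level of -0.49 ± 0.26 for HEPH, -0.73 ± 0.15 for SLC5A1 and -2.57 ± 0.36 for SLC28A3. The neighbours HEPH and SLC5A1 did not differ beyond their spread, nor did SLC46A1 at 0.60 ± 0.21 and SLC9A3 at 0.61 ± 0.15. CA2 reached its highest level, 5.65 ± 0.18, in CDX1 cells, and SLC16A5 its highest, 6.14 ± 0.80, in EV cells.

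A separate list of 86 other genes of absorption and ion transport was read in the same fit. Of its 54 tested genes, 12 rose and 2 fell in EHF+CDX1 against EV cells, beside 7.3% and 3.13% of all genes, and the median log2 fold change was 0.08. The largest rises were in KCNE3, a potassium channel subunit of crypt chloride secretion, CFTR, the chloride channel it serves, and MGAM2, a glucosidase gene related to MGAM. KCNE3 had 170 to 541 reads in the EHF+CDX1 libraries (10.2 ± 1.37 CPM) and 0 reads in the other 9. CFTR reached 4.61 ± 0.251 CPM in EHF+CDX1 cells against 0.0123 ± 0.0212 CPM in EV cells, where it had at most 2 reads. Both genes passed the filter only through the EHF+CDX1 libraries and are among the 12 that rose. That count was therefore in part set by the filter. MGAM2 reached 9.43 ± 0.789 CPM against 0.222 ± 0.113 CPM (log2 5.27 ± 0.36, edgeR adjusted p = 1.442e-06). The genes that fell were SLC2A1, the general glucose carrier (log2 -1.89 ± 0.18, edgeR adjusted p = 6.54e-05), and ATP1B1, a sodium pump subunit (-1.32 ± 0.11, adjusted p = 5.687e-05). Without EHF+CDX1 replicate 2 the count that rose was 7, beside 5.12% of all genes, and without EV replicate 3 it was 17, beside 11.2%.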

How the data were processed

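RNA-seq of 12 libraries was analysed, 3 from each of 4 lines. According to the labels and methods, the authors aligned reads to GRCh38 with Subread 2.0.0 and assigned uniquely mapped reads to RefSeq genes with featureCounts 2.0.0, and the strand setting is not given in the sources used here. The deposited counts are whole numbers per gene and library, not normalized. The authors also deposited log2 RPKM values, quantile normalized, which were used here only for levels per length and as an alternative. The library totals ranged from 13523007 to 74186741 counts.

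Genes with at least 0.5 CPM in at least 3 libraries entered 1 edgeR 4.0.16 fit (R 4.3.3, limma 3.58.1) over all lines with TMM factors, which left out 0.0585% of counts. The 550 genes without a symbol stayed in as their identifiers. Tests were against a 1.5-fold change, 2-sided, with Benjamini-Hochberg adjustment over all tested genes and 0.05 as the threshold, and SE is the log2 fold change over the square root of the quasi-likelihood F. Pooled ratios carry exact 95% intervals. The script was tested on simulated data with 200 changed genes.

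The members and lists were chosen with earlier results of these data known. Values per library are given for members called in EHF+CDX1 cells against any other line, and for a few others by their role, and the rest as means, ranges or reads. FABP1, SLC2A5, ALPI, AQP8, MOGAT2 and CD36 were singled out after their values were seen. DESeq2 1.42.0, limma voom and 7 kinds of other settings were alternatives.

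Promoters are from RefSeq on GRCh38.p14.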

Additional observations from a re-analysis of the deposited data

Results flagged for a closer look

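The interaction term of the edgeR fit was called for 12 of the 27 members with over 3 counts in a library of each line. For these the change from CDX1 to EHF+CDX1 cells differed from that from EV to EHF cells. The test was 2-sided, against a 1.5-fold change, with Benjamini-Hochberg adjustment. The share among all genes was 19.8% positive and 17.9% negative. The log2 interaction was 4.17 ± 0.61 (SE) for SLC15A1 (adjusted p = 0.000259), 4.03 ± 0.56 for SLC40A1 (adjusted p = 0.000181), 2.85 ± 0.67 for SLC28A2 (adjusted p = 0.00701) and 2.52 ± 0.44 for SLC16A5 (adjusted p = 0.00119). It was 1.84 ± 0.17 for SLC5A6 (adjusted p = 2.26e-05), 1.72 ± 0.28 for SLC26A2 (adjusted p = 0.00145), 1.56 ± 0.26 for SLC9A3 (adjusted p = 0.00212) and 1.48 ± 0.38 for CA12 (adjusted p = 0.0211). It was 1.42 ± 0.21 for SLC27A4 (adjusted p = 0.00113) and 1.31 ± 0.21 for SLC39A4 (adjusted p = 0.00286). The negative values were -5.07 ± 0.72 for ANPEP (adjusted p = 0.000186) and -3.23 ± 0.31 for CA2 (adjusted p = 1.11e-05).

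The control side of this difference includes EV replicate 3. Without that library the log2 interaction was -9.56 for ANPEP, 3.37 for SLC15A1, 1.96 for SLC28A2, 0.88 for CA12 and 1.87 for SLC16A5, and each of these 5 passed the test. The call of CA12 was lost without CDX1 replicate 2 (1.40, adjusted p = 0.0527), with DESeq2 (1.45, adjusted p = 0.0846) and with the deposited log2 RPKM (1.18, adjusted p = 0.1199). The CDX1 transcript itself was at 525 CPM in CDX1 cells and 5419 CPM in EHF+CDX1 cells. The EHF transcript started at 12.3 CPM in CDX1 and 299 CPM in EV cells. The part of either level in these values was not tested.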

How the results depend on the processing

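Shares of all tested genes called in the same direction stand in brackets. Members higher in EHF than in EV cells numbered 5 (5.68%). They were 3 with DESeq2, limma voom, the replicate block or the deposited log2 RPKM (4.08% to 5.32%). With only the lines compared they were 2 (3.99%), and leaving out each library gave 2 to 8 (4.51% to 9.51%). Members lower there numbered 2 (2.65%), or 7 in the test against no change (15.1%) and 1 with only the lines compared (1.67%). Without a library they were 2 to 3 (1.85% to 3.46%). For CDX1 against EV cells, leaving out libraries gave 5 to 9 higher (18.9% to 26.3%) and 7 to 10 lower (21.1% to 24.8%). For EHF+CDX1 against EV cells, the 8 higher (7.3%) became 5 with voom (5.42%) and 5 to 9 without a library (5.04% to 11.2%). The 2 lower (3.13%) became 1 with DESeq2, voom, log2 RPKM or only the lines compared (1.95% to 3.41%). They were 5 in the test against no change (16.7%) and 1 to 2 without a library (2.16% to 4.28%). Against EHF cells the 4 higher (2.49%) were 3 to 5 under the other settings (1.64% to 5.65%) and 1 to 3 without a library (0.846% to 2.12%). The count was 1 on leaving out any EHF+CDX1 library, where HEPH and SLC28A3 failed the filter. Against CDX1 cells the 10 higher and 3 lower became 16 and 5 with no filter (15.2% and 12.2%). Without a library they were 8 to 11 (19.4% to 20.8%) and 3 (16.2% to 17.5%). Interactions numbered 9 to 12 positive (18.1% to 23.3%) and 2 to 5 negative (16% to 24.4%) without a library. For the other absorption genes, the 12 higher became 7 to 17 (5.04% to 11.2%) and the 2 lower 2 to 3 (2.16% to 4.28%) without a library. In the test against no change 8 were lower (16.7%). In EHF+CDX1 against EV cells, 5 members that missed the test turned in sign. On leaving out each library their log2 fold changes ranged from -0.99 to 1.25 for MGAM, -1.005 to 0.16 for SLC28A2 and -0.27 to 0.059 for SLC27A4, each positive without EV replicate 3 alone. They ranged from -0.056 (without EV replicate 2) to 0.72 for SLC23A1, also below 0 without EV replicate 1 or EHF+CDX1 replicate 2, and from -0.083 (without EV replicate 1) to 0.45 for SLC40A1, also below 0 without EHF+CDX1 replicate 1. SLC23A1 was at -0.65 with voom and -0.63 with log2 RPKM, and SLC40A1 at -0.24 and -0.23. The causes were not tested. Calls were also lost in EHF+CDX1 against EV cells for ANPEP with voom (2.38, adjusted p = 0.05539), for SLC51A with voom (1.18) and log2 RPKM (1.13), for SLC7A7 with log2 RPKM (1.43), and for SLC26A2 with DESeq2, voom, log2 RPKM or only the lines compared (-1.16 to -1.04). They were lost in EHF against EV cells for CA12 (1.58, adjusted p = 0.1172) and SLC16A5 (-2.13, adjusted p = 0.05243) with only the lines compared, for ANPEP with voom (2.21) or the replicate block (2.67), for CA2 with DESeq2, log2 RPKM or only the lines compared (1.14 to 1.27), and for SLC51A with no filter, DESeq2, voom, the block or log2 RPKM (1.18 to 1.48). In CDX1 against EV cells they were lost for SLC9A3 with log2 RPKM (-0.96), SLC7A7 with DESeq2, voom or log2 RPKM (1.21 to 1.55), SLC28A2 with those or only the lines compared (-1.77 to -1.29), and SLC20A1 with those, no filter or only the lines compared (0.51 to 0.84). In EHF+CDX1 against EHF cells SLC5A1 was lost with the block (2.47) and log2 RPKM (2.27). Quantile normalization moved the median of all genes by -0.161 (voom) and -0.164 (log2 RPKM) for EHF+CDX1 against CDX1 cells, where SLC26A2 (0.98 in both) and SLC51A (1.24 and 1.21) lost their calls. The share of higher among all calls was 70.0% in EHF+CDX1 against EV cells and 50.2% in the test against no change. In EHF+CDX1 against EHF cells it was 92.9%, or 57.8% in the test against no change, 73.6% with only the lines compared and 79.9% without EV replicate 3. Replicate numbers did not pair the libraries, with correlations of -0.065 to 0.080 and 4 of 12 libraries best matched to their own number. Members under 3 counts in a library could not be ranked at this depth.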
